A study of Mus musculus with 67 samples.

Results

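The distal 10 Mb of each of the 19 mouse autosomes was followed in single cells of early embryos. A distal end was made of the 200-kb bins that start within 10 Mb of the outermost bin end with a value in at least 34 of the 67 cells. This gave 950 of the 13103 bins, 50 per chromosome, of which 948 were used. The position of a bin on its chromosome alone decided membership, not its values.

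Mouse autosomes carry their centromere at one tip, so the distal end is the tip farthest from it. A chromosome that breaks once leaves a fragment with the centromere and one without it, and the distal end always lies on the fragment without. Spindle fibres pull on the centromere, so a fragment that lacks it can be handed to either daughter cell, to both or to neither. Aphidicolin inhibits the replicative DNA polymerases and slows replication forks, and cells that enter mitosis with DNA not fully copied are known to break chromosomes.

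The study asked how slowed replication in one cell cycle bears on the chromosomes of the cells of the next. BDF1 embryos were cultured in vitro in CZB medium, and while they were at the 4-cell stage they received either aphidicolin at 75 ng/ml or only its solvent, DMSO. At the 8-cell stage single cells, the blastomeres, were taken out with a pipette after a short bath in cytochalasin B, an inhibitor of actin filaments, which both groups received. The genome of each cell was amplified and sequenced at low depth, an assay known as scRepli-seq. The DMSO group held 20 cells, from embryos of 4, 8 and 8 profiled cells. The Aphidicolin group held 47 cells, from 6 embryos with 8 profiled cells each, except Aphidicolin 6 with 7. The embryo was the replicate, and cells are given by their library number.

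Depth lay between 0.739 and 2.65 M reads in Aphidicolin cells (median 2.01 M) and between 1.47 and 2.83 M in DMSO cells (median 2.26 M). A 1-Mb window held a median of 756 reads in Aphidicolin and 852 in DMSO cells, which gives a counting error of about 0.05 on the log2 scale. The X chromosome, which is in no count below, was at a mean log2 of -0.24 ± 0.03 relative to the autosomes in DMSO embryos (SD, n = 3) and of -1.02 ± 0.07 in Aphidicolin embryos (SD, n = 6), without overlap. X number and treatment therefore cannot be told apart. Values of an end are medians over 10 windows of 1 Mb, on the log2 scale, after removal of a pattern along the chromosomes that the cells shared to differing degrees. The weight of this pattern was fitted per cell. Its embryo means were 1.12 to 1.30 in DMSO and 0.356 to 1.13 in Aphidicolin, so the amount removed differed between treatments. A cell's autosomal median stands for 2 copies, so a log2 value of 0 is 2 copies and one of -1 is 1 copy. An end was gained above a log2 of 0.32, lost below -0.42, and called near zero, a subset of the losses, below -3.

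Distal ends were gained or lost in nearly every Aphidicolin cell and in 1 DMSO cell. Aphidicolin embryos had a mean of 6.42 ± 1.58 called ends per cell (SD, n = 6), which is 33.8% of the 19 ends, and DMSO embryos had 0.0833 ± 0.144 (SD, n = 3). Over all 10-Mb blocks of the autosomes 25.2% were called in Aphidicolin cells and 0.885% in DMSO cells (0.617% gained and 0.267% lost). The lowest Aphidicolin embryo, Aphidicolin 4, had a mean of 4.5 called ends per cell, and the highest, Aphidicolin 3, had 8.25. The DMSO embryos had means of 0, 0 and 0.25. The groups thus did not overlap. At least 1 end was called in 45 of 47 Aphidicolin cells (95.7%, exact 95% binomial interval 85.5 to 99.5%) and in 1 of 20 DMSO cells (5%, 0.127 to 24.9%). These intervals cover counting only and take cells of 1 embryo as independent. The middle 10 Mb of the chromosomes had a call in as many cells, 45 of 47 and 1 of 20. The highest number in a single cell was 14 of 19 ends, and 2 Aphidicolin cells had no end called. No test was run on the sum over the ends, and with values as deposited, without removal of the shared pattern, the means were 7.77 ends in Aphidicolin and 5.25 in DMSO.

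**Figure D1:**
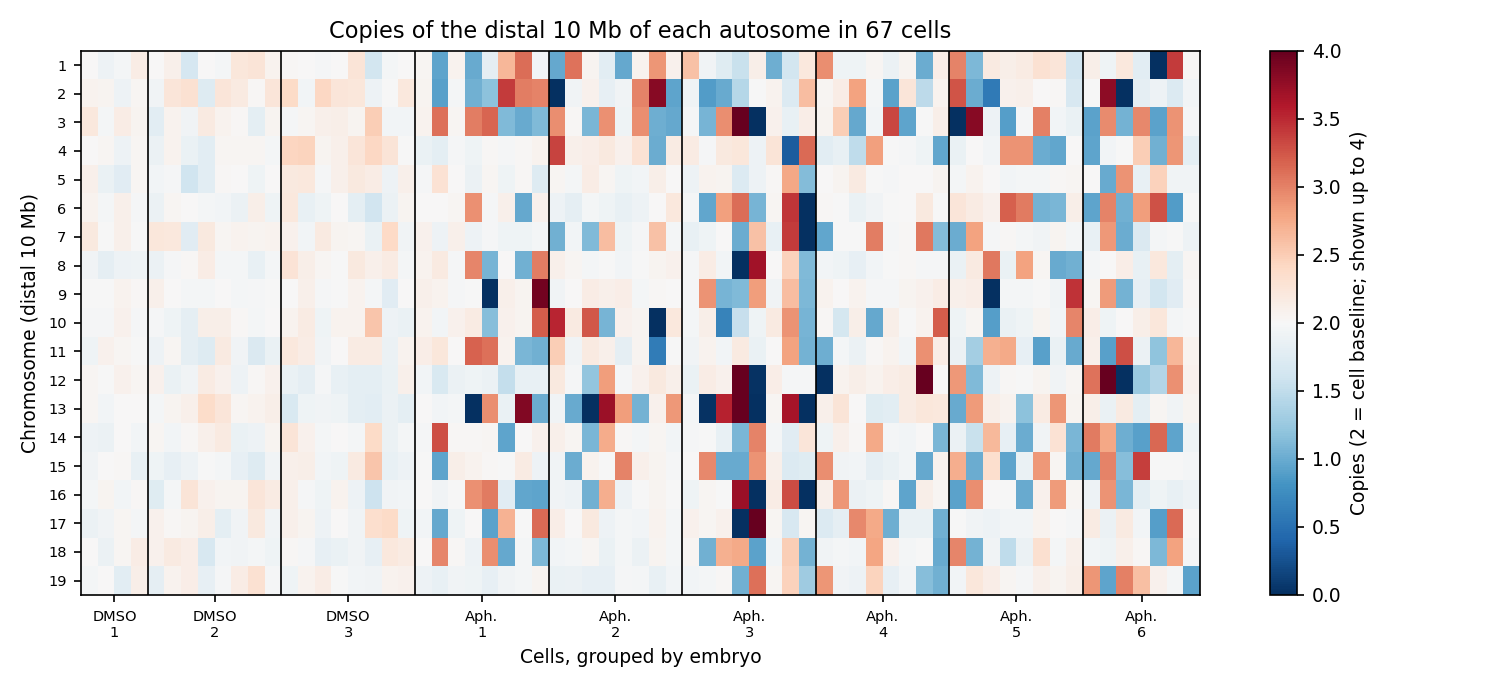
Copies of the distal 10 Mb (colour; blue below and red above 2, shown up to 4) for 19 autosomes (rows) in 67 cells (columns, grouped by embryo between black lines). DMSO columns are pale throughout, and in Aphidicolin embryos a dark blue cell shares its row and embryo with a dark red one.

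Gains and losses were about as frequent as each other. Of the 300 calls in Aphidicolin cells 143 were gains and 157 were losses, 22 of the latter near zero. Per cell this was 3.07 ± 0.774 gained and 3.35 ± 0.842 lost ends (SD, n = 6 embryos), or 16.1% and 17.7% of the ends, beside 12.3% and 12.9% over all blocks. Gained ends had a median of 2.95 copies with quartiles at 2.84 and 3.15. Lost ends above near zero had a median of 1.01 copies with quartiles at 0.961 and 1.08. Uncalled Aphidicolin ends lay at a median of 1.99 copies and DMSO ends at 2.00. The level of 2 follows from centring each cell on its autosomal median and, for uncalled ends, from the limits. Gained ends and lost ends above near zero gathered close to 3 and 1 copies. The SD of all DMSO end values was 0.105 on the log2 scale, against the log2 of 0.58 that 3 copies would give and the -1 that 1 copy would give. Few values lay close to a limit: 9 Aphidicolin ends were between 0.32 and 0.40 and 4 between -0.50 and -0.42, while 6 stayed just below the gain limit and 5 just above the loss limit.

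Both calls in DMSO cells were gains in cell 24 of DMSO 3. The distal end of chromosome 15 was at a log2 of 0.36 there, against -0.11 to 0.13 in the other 7 cells of that embryo. The distal end of chromosome 10 was at 0.35 in cell 24, against -0.10 to 0.11 in the other 7 cells, and the middle of this chromosome was at -0.46. Cell 24 was the second noisiest of the 67 cells, with a noise between neighbouring windows of 0.179 on the log2 scale against a median of 0.125 in DMSO cells. No DMSO cell had a lost end, and 0 of 20 cells allows a share of up to 16.8%.

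The 19 ends were not called equally often. Chromosome 3 led, with its end (chr3:149000001-159000000 in mm9) gained in 15 and lost in 15 of 47 Aphidicolin cells, 2 of the losses near zero. It was called in 6, 6, 4, 4, 4 and 6 cells of Aphidicolin 1 to 6, and in each of these embryos as many cells had gained it as had lost it. In Aphidicolin 4 this balance rested on cell 52, at a log2 of 0.32175, just past the gain limit of 0.32. The change-point search described below called no terminal segment on chromosome 3 of cell 52. Its copies ran from 0.0113 in cell 47 to 4.15 in cell 46 of the same embryo, with a median of 1.98. In DMSO cells the range was 1.79 to 2.49 copies. The highest DMSO value, again from cell 24, was at a log2 of 0.317, only just below the gain limit. The middle of chromosome 3 in cell 24 was at 0.525, past that limit.

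The end of chromosome 2 (chr2:171200001-181200000) was gained in 9 and lost in 13 Aphidicolin cells, 2 of them near zero, and lost more often than gained in Aphidicolin 3, 4 and 5. Its copies ran from 0.00529 to 3.81 in Aphidicolin and from 1.75 to 2.42 in DMSO cells. The end of chromosome 13 (chr13:109800001-119800000) was gained in 10 and lost in 10 cells of 4 embryos, and 5 of the losses were near zero, the most of any end. Its copies ran from 0.00254 to 4.09 in Aphidicolin and from 1.70 to 2.37 in DMSO cells. Chromosomes 6, 11, 15 and 16 followed with 18 called cells each, of which 9, 8, 8 and 9 were gains. Their highest Aphidicolin values lay between 3.30 and 3.71 copies. The near-zero cells among them were 1 for chromosome 6 and 2 for chromosome 16, with none for chromosomes 11 and 15.

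The end of chromosome 5 (chr5:142000001-152000000) was called least, in 4 cells. It was gained in cell 49 (2.77 copies) and lost in cell 50 (1.14 copies) of Aphidicolin 3, and gained in cell 69 (2.91 copies) and lost in cell 68 (0.987 copies) of Aphidicolin 6. In the other 4 Aphidicolin embryos every cell was uncalled at this end. The ends of chromosomes 8 and 19 came next with 11 called cells each. Chromosome 8 was gained in 5 and lost in 6 cells, 1 of them near zero, and chromosome 19 was gained in 5 and lost in 6, none near zero. Each was called in 3 embryos.

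The 9 ends not yet described were called in 12 to 17 Aphidicolin cells. These were 16 for chromosomes 1, 7 and 18, 17 for chromosome 14, 14 for chromosomes 4 and 12, 13 for chromosome 10, and 12 for chromosomes 9 and 17. Over all 19 ends, 11 were gained and lost in equal numbers of Aphidicolin cells, 8 were lost in more cells, and 0 were gained in more. The counts of gained and lost cells went together across the 19 ends (Spearman's rho 0.90, Pearson's r 0.92), which share the same cells. The number of called cells had a rho of 0.17 with the covered length of the chromosome, from 58.2 Mb for chromosome 19 to 194 Mb for chromosome 1. It had a rho of -0.25 with the deposited DMSO level of the end. No test was run on these 3 relations.

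**Figure D2:**
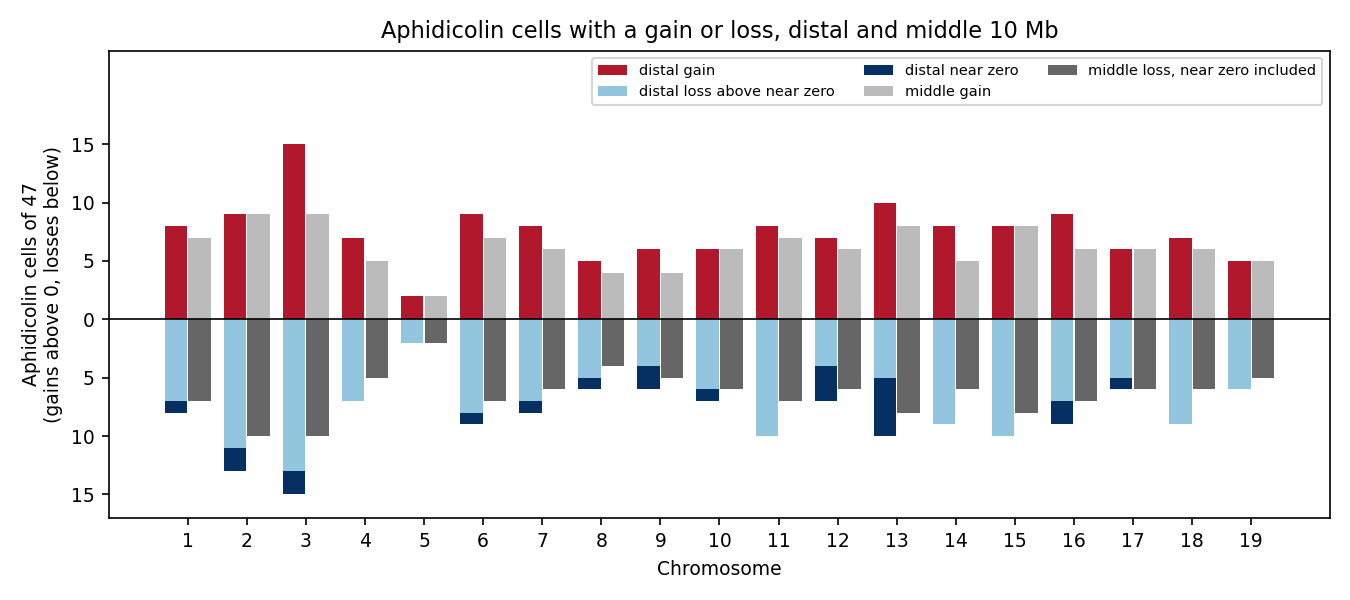
Number of the 47 Aphidicolin cells with a gain (above 0) or a loss (below 0) of the distal 10 Mb (coloured bars, near-zero losses dark blue) and of the middle 10 Mb (grey bars) of each autosome. Chromosome 3 has the tallest bars with 15 gains and 15 losses, and chromosome 5 the shortest with 2 and 2.

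Most windows of a called end were past the limit. An end was called by the median of the same 10 windows, and neighbouring windows share reads, so some agreement was built in. All 10 windows were past the limit in 93 of 143 gained and 145 of 157 lost ends, and at least 8 of 10 in 128 and 151. In DMSO cells 2.63 to 9.74% of single windows were called, depending on their distance from the tip, beside 0.526% of ends. Counted window by window, the calls in Aphidicolin cells stayed between 303 at the outermost and at most 320 further in. The outermost 1 Mb was therefore called about as often as the rest of the 10 Mb. Near-zero windows without a near-zero end were found in 3 of 1251 other ends. In cell 49 of Aphidicolin 3 the outer 5 windows of chromosome 4 were near zero and the inner windows at 0.758 copies. In cell 71 of Aphidicolin 6, 4 windows of chromosome 7, from 6 to 10 Mb inside the end, were near zero and the outer windows at 2.15 copies. In cell 67 of Aphidicolin 6 this held for 1 window of chromosome 15.

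The departure of an end from 2 copies, whichever the direction, was compared between treatments for all 243 autosomal 10-Mb blocks in 1 limma fit on embryo means. It was higher in Aphidicolin embryos at all 19 distal ends, and at 241 of all 243 blocks. For the end of chromosome 3 the 3 DMSO embryos had mean departures of 0.113, 0.106 and 0.118 copies. The 6 Aphidicolin embryos ran from 0.515 (Aphidicolin 4) over a median of 0.776 to 0.846 (Aphidicolin 6), well apart from DMSO. The difference was 0.627 ± 0.106 copies (SE, limma with Benjamini-Hochberg adjustment over 243 blocks, adjusted p = 0.00394). At the end of chromosome 2 the DMSO embryos had 0.0618, 0.194 and 0.207 copies and the Aphidicolin embryos 0.365 to 0.795 with a median of 0.578. These too did not overlap, with a difference of 0.440 ± 0.118 copies (SE, limma adjusted p = 0.0451). Of the distal ends these 2 passed, and of all blocks 9, or 3.7%, all higher in Aphidicolin.

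The end of chromosome 1 was nearest below the threshold, at 0.359 ± 0.105 copies (SE, limma adjusted p = 0.0656), and that of chromosome 5 farthest, at 0.0333 ± 0.111 copies (SE, limma adjusted p = 0.780). Unadjusted p-values were under 0.05 at 14 of 19 distal ends and at 71 of 243 blocks. Embryo means did not overlap at 9 of 19 distal ends, beside 17.3% of all blocks. The median difference was 0.319 copies over the distal ends and 0.222 over all blocks. Which ends passed rested on single embryos and on the processing. No block passed without any 1 of the 3 DMSO embryos (lowest limma adjusted p 0.0591 to 0.0674), with values as deposited (0.171), or with cells fitted singly and a random term per embryo (0.179). Weights per embryo, whose estimation stopped before convergence, brought 16 distal ends past the threshold.

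The signed log2 level of the ends gave no call. All 19 distal ends had a lower mean log2 level in Aphidicolin than in DMSO embryos, with a median difference of -0.23 over the ends and -0.11 over all blocks. Of all 243 blocks only 19 had a higher level in Aphidicolin, so a lower level was not particular to the ends. On the log2 scale a lost copy counts for more than a gained one, and a near-zero cell for most. In the limma fit 0 of 243 blocks passed, the lowest adjusted p was 0.561, and 12 blocks, 0 of them distal, had an unadjusted p under 0.05.

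Distal ends were called more often than the middle 10 Mb of the same chromosomes, but the difference did not pass its test. In Aphidicolin cells the middle was called 237 times, with 116 gains and 121 losses of which 12 were near zero. Of the 19 chromosomes, 17 had more Aphidicolin cells called at the end than in the middle, 2 (chromosomes 5 and 17) had as many, and 0 had fewer. By embryo the share of called ends exceeded that of called middles by 16.4, 9.21, 7.24, 6.58 and 3.01 points in Aphidicolin 1, 2, 4, 5 and 6, whereas the difference was -0.658 points in Aphidicolin 3. The mean difference was 6.97 ± 5.81 points (SD, n = 6, exact two-sided sign-flip permutation p = 0.0625, adjusted p = 0.0833 over 4 measures). The difference was positive in all 6 embryos for losses, with a mean of 3.96 ± 2.80 points (exact permutation p = 0.03125, adjusted p = 0.0833). It was positive in 5 of 6 for gains, at 3.01 ± 3.25 points (exact permutation, adjusted p = 0.0938). For near-zero ends it was positive in 5 of 6 and 0 in the other, at 1.11 ± 0.983 points (exact permutation, adjusted p = 0.0833). The smallest p that 6 embryos allow is 0.03125, so none could pass far below the threshold.

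The difference between end and middle was 0 points for any call in each of the 3 DMSO embryos. DMSO 1 and DMSO 2 had no call in either region, and cell 24 of DMSO 3 had 2 in each. With so few calls a difference by place could not be seen in DMSO. The excess of the difference in Aphidicolin over DMSO was not past the threshold either (exact two-sided permutation over 9 embryos, adjusted p from 0.175 to 0.226 for the 4 measures). The result within Aphidicolin embryos moved with the processing. With values as deposited the difference for losses turned to -1.19 points (exact permutation, adjusted p = 0.75), and with the mean of the windows in place of their median those for any call, gains and losses reached an adjusted p of 0.0417.

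Against the proximal 10 Mb, the tip nearest the centromere, the contrast was wider. Proximal tips were called 130 times in Aphidicolin cells, 65 times as gains and 65 as losses, 3 of these near zero. The distal share exceeded the proximal one by 19.1 ± 5.17 points for any call, 8.80 ± 3.001 for gains, 10.3 ± 2.66 for losses and 2.10 ± 2.25 for near-zero ends (SD, n = 6). Each was higher in 6 of 6 Aphidicolin embryos (exact two-sided sign-flip permutation, adjusted p = 0.03125, the smallest possible). This comparison was an alternative to the one with the middle. In DMSO embryos the same difference was -0.439 ± 0.760 points for any call (SD, n = 3). The difference between treatments, 19.6 points, had an adjusted p of 0.0159 by exact two-sided permutation. DMSO cells had only 2 distal and 4 proximal calls, each of 380, so their difference could only be small. The permutation therefore cannot tell a difference by place from the near absence of calls in DMSO. For near-zero ends the difference between treatments had an adjusted p of 0.155 and did not pass.

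**Figure D3:**
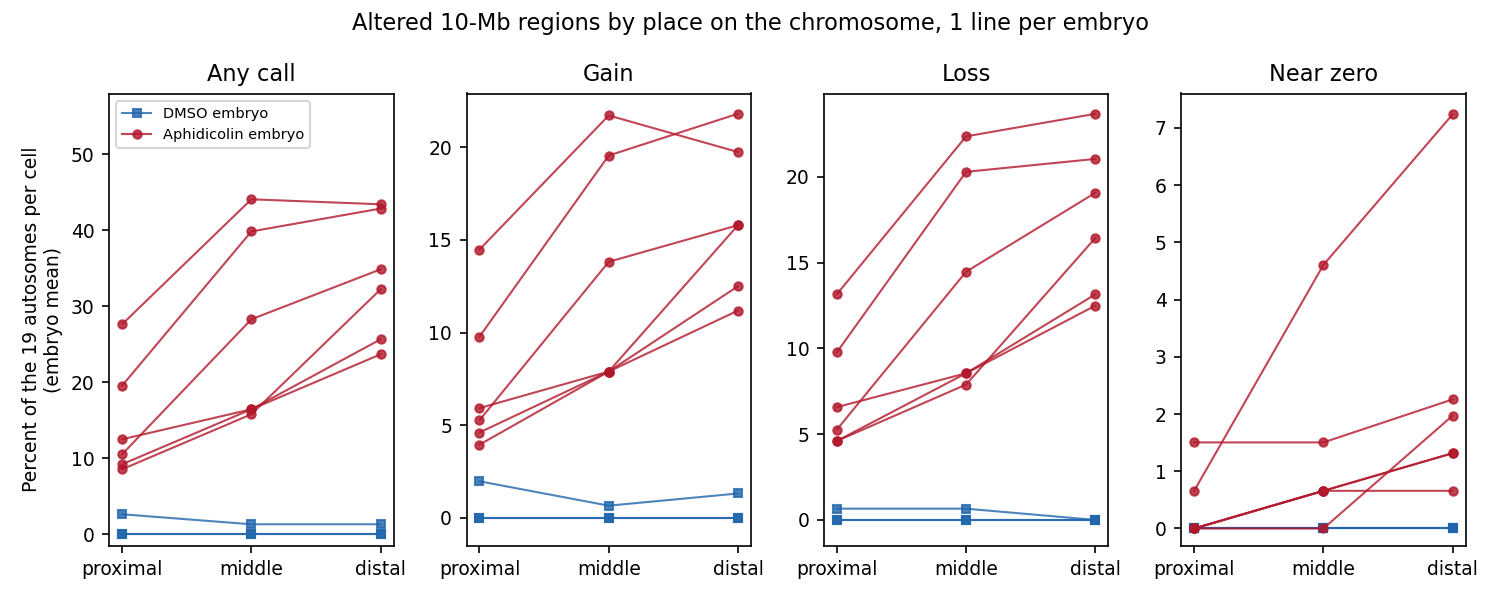
Percent of the 19 autosomes called per cell (embryo mean, vertical axis) in the proximal, middle and distal 10 Mb, for any call, gains, losses and near-zero levels, with 1 line per embryo. All 6 Aphidicolin lines end higher at the distal than at the proximal tip in each panel, and the DMSO lines stay at 0 to 2.63%.

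From the distal end inwards the calls became fewer step by step. On the 18 autosomes of at least 80 Mb, 34.3% ± 8.07 of blocks were called in the outermost 10 Mb of Aphidicolin embryos (SD, n = 6). The next 10 Mb had 33.7%, and the shares fell through 31.4, 30.5, 29.5, 28.3 and 25.5% to 23.1% ± 9.31 at 70 to 80 Mb. The SDs between embryos exceeded each single step, but they measure the spread of embryos at 1 distance. The spread of a step within the same embryos is not given. Gains went from 16.4 to 11.3%, losses from 17.9 to 11.8% and near-zero blocks from 2.60 to 1.44%. DMSO blocks stayed between 0.231 and 0.463%. This profile was described without a test.

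**Figure D4:**
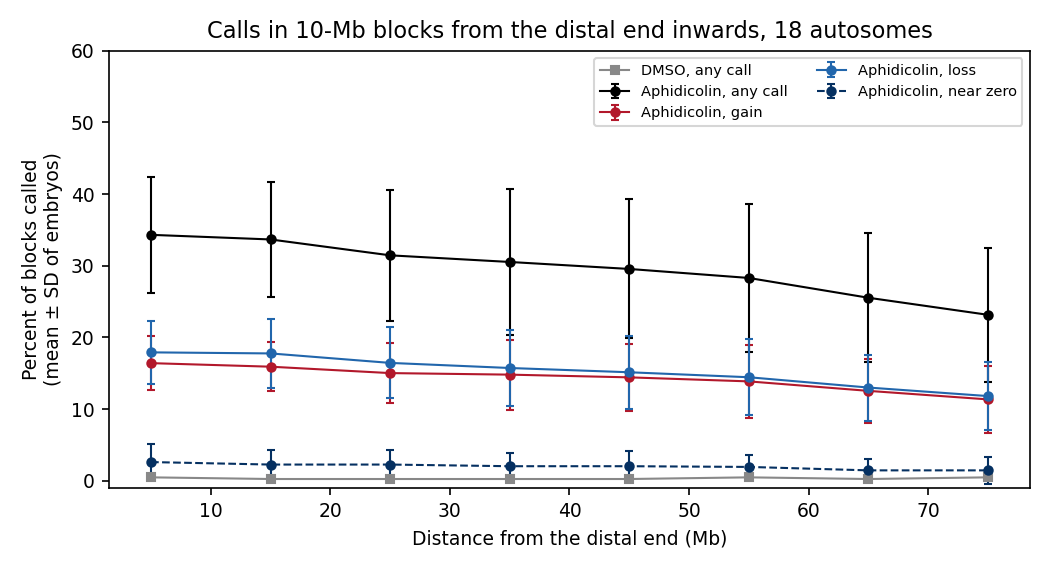
Percent of 10-Mb blocks called (vertical axis, mean ± SD of embryos for Aphidicolin, mean for DMSO) against distance from the distal end in Mb (centre of each block), for 18 autosomes. The Aphidicolin line for any call falls from 34.3 to 23.1% and the DMSO line stays under 1%.

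Most called ends were the outer stretch of a longer change. The middle of the chromosome had the same direction in 191 of the 300 called ends (63.7%), was uncalled in 98 (32.7%) and had the opposite direction in 11 (3.67%). The reverse case, a called middle with an uncalled end, occurred 35 times. Per cell, ends called alone numbered 2.09 ± 0.540 in Aphidicolin embryos and middles called alone 0.762 ± 0.744 (SD, n = 6). Segments from a change-point search, at least 10 Mb long, were called at 304 distal ends of Aphidicolin cells. Of these 95 covered at least 90% of the chromosome and 209 ended inside it, at a median of 56 Mb from the distal end with quartiles at 33 and 89 Mb. Up to 20 Mb was covered by 25 of the 209, between 20 and 50 Mb by 65, and over 50 Mb by 119. Gained and lost stretches were alike in size, with medians of 59 and 55 Mb. DMSO cells had 1 such segment, a gain of 126 Mb that covered chromosome 8 in cell 24 at a log2 of 0.43.

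Gained and lost ends occurred together within embryos. Over the 19 ends and 6 Aphidicolin embryos there were 114 pairs of end and embryo. In 89 of them the end was gained in some cells and lost in others, in 2 only lost, in 0 only gained, and in 23 uncalled. The numbers of gained and lost cells were equal in 76 of the 89. The pairs with a loss alone were chromosome 15 in Aphidicolin 1 and chromosome 11 in Aphidicolin 2, 1 cell each. In the latter, cell 35 was at a log2 of 0.3195 at the end, just under the gain limit of 0.32, and the change-point search called its whole chromosome 11 gained at 0.46. Averaged over the cells of an embryo, the copies of an end came to a median of 1.98 in the 114 pairs, with a range of 1.70 to 2.16. The lowest of these means was chromosome 2 in Aphidicolin 3, gained in 1 cell and lost in 3. In DMSO embryos the averages ran from 1.84 to 2.24.

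The inner limit of the change also mostly matched between the cells. By the change-point search, in 39 pairs of end and embryo exactly 1 cell had a gained and 1 cell a lost terminal segment, chromosome 11 in Aphidicolin 2 among them. Both segments covered the whole chromosome in 16 of these and part of it in 21, and 2 had 1 of each kind. Where both covered part, their lengths differed by at most 2 Mb in 18 of 21, with a median difference of 0 Mb and a largest of 5 Mb. The 2 mixed pairs differed by more, chromosome 12 in Aphidicolin 2 by 25 Mb and chromosome 17 in Aphidicolin 3 by 20 Mb. Chromosome 9 in Aphidicolin 1, counted as whole in both cells, differed by 10 Mb. On chromosome 2, cell 53 had gained and cell 55 of the same embryo had lost the distal 160 Mb. On chromosome 5, cell 69 had gained and cell 68 had lost the distal 10 Mb, at 2.91 and 0.987 copies. As 10 Mb was the shortest segment the search allowed, the match of this pair, counted among the 18, says little. Some inner limits also recurred between embryos. On chromosome 3, segments of 73 Mb were found in Aphidicolin 1 (cells 28, 32), Aphidicolin 2 (37, 38) and Aphidicolin 3 (44, 45). On chromosome 13, segments of 28 Mb were found in Aphidicolin 2 (cells 37, 38) and Aphidicolin 5 (63, 65). How often cells of different embryos match was not computed.

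Near-zero ends were present in every Aphidicolin embryo and in no DMSO embryo. The 22 such ends lay in 14 of 47 cells (29.8%, exact 95% binomial interval 17.3 to 44.9%) and on 12 chromosomes, beside 1.41% of all blocks of Aphidicolin cells near zero and 2.46% ± 2.41 of distal ends (SD, n = 6). Per cell the 6 embryos had means of 0.25, 0.375, 1.38, 0.125, 0.25 and 0.429. Aphidicolin 3 held 11 of the 22, and without this embryo the mean of 0.467 per cell became 0.286. A near-zero end held a median of 43 reads. Relative to 10 windows at the cell's median level this was 0.598%. The range was 0.168 to 7.92%. The highest share belonged to chromosome 9 in cell 61, where 9 windows were near zero and the innermost was at 0.908 copies. In the other 21 all 10 windows were near zero.

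The 15 lowest ends had log2 levels between -9.62 and -7.41. The lowest was chromosome 13 in cell 37 (-9.62), followed by chromosome 8 in cell 46 (-9.08), chromosome 17 in cell 46 (-8.72), chromosome 2 in cell 35 (-8.56) and chromosome 13 in cell 30 (-8.36). Next came chromosome 1 in cell 71 (-8.30), chromosome 10 in cell 41 (-8.22), chromosome 12 in cell 51 (-8.21), chromosome 9 in cell 31 (-7.89) and chromosome 2 in cell 69 (-7.89). The last 5 were chromosome 9 in cell 61 (-7.66), chromosome 12 in cell 69 (-7.59), chromosome 3 in cells 47 (-7.47) and 59 (-7.42) and chromosome 16 in cell 50 (-7.41). At such levels a few reads set the value, so the order among them carries little.

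Inward from a near-zero end the chromosome was not always missing. The middle was near zero too in 11 of the 22, lost to a lesser degree in 8, uncalled in 1 and gained in 2. The proximal tip was near zero in 1, chromosome 12 of cell 69, where the middle was near zero as well. The uncalled middle was that of chromosome 9 in cell 61, at 2.03 copies. The gained middles were those of chromosome 13 in cell 37 (2.996 copies) and of chromosome 7 in cell 50 (3.10 copies). In only 1 case was a middle near zero and the end not, on chromosome 3 of cell 50, with 0.0134 copies in the middle and 2.14 at the end.

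Each near-zero end faced a high gain in another cell of the same embryo. The highest cell of the embryo had between 3.40 and 4.25 copies of that end, with a median of 3.82, and exceeded 3.5 copies for 18 of the 22. The 22 ends made up only 19 pairs of end and embryo, so some highest cells count more than once. In Aphidicolin 3, cell 46 was the highest for 3 near-zero cells of chromosome 13 and for 2 of chromosome 16. Conversely 17 ends in 12 cells were above 3.5 copies, a mark set after values were seen, and for all 17 another cell of the embryo was near zero at that end. The 5 highest were chromosome 12 in cell 57 (4.25 copies, near zero in cell 51), chromosome 12 in cell 46 (4.18, near zero in cell 47), chromosome 3 in cell 46 (4.15, near zero in cell 47), chromosome 12 in cell 68 (4.11, near zero in cell 69) and chromosome 13 in cell 46 (4.09). Averaged over the cells of the embryo, copies at the 22 near-zero ends came to between 1.83 and 2.13.

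The end of chromosome 13 in Aphidicolin 3 was the most divided. Cells 44, 47 and 50 had 0.0162, 0.0152 and 0.0128 copies, and cells 45, 46 and 49 had 3.54, 4.09 and 3.65. The remaining cells, 43 and 48, had 1.96 and 2.03. In reads, the near-zero cells had 43.8, 64.2 and 51 over the 10 Mb and the high cells 15660, 13005 and 12286. The embryo thus averaged 1.92 copies, with 3 cells at each extreme.

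**Figure D5:**
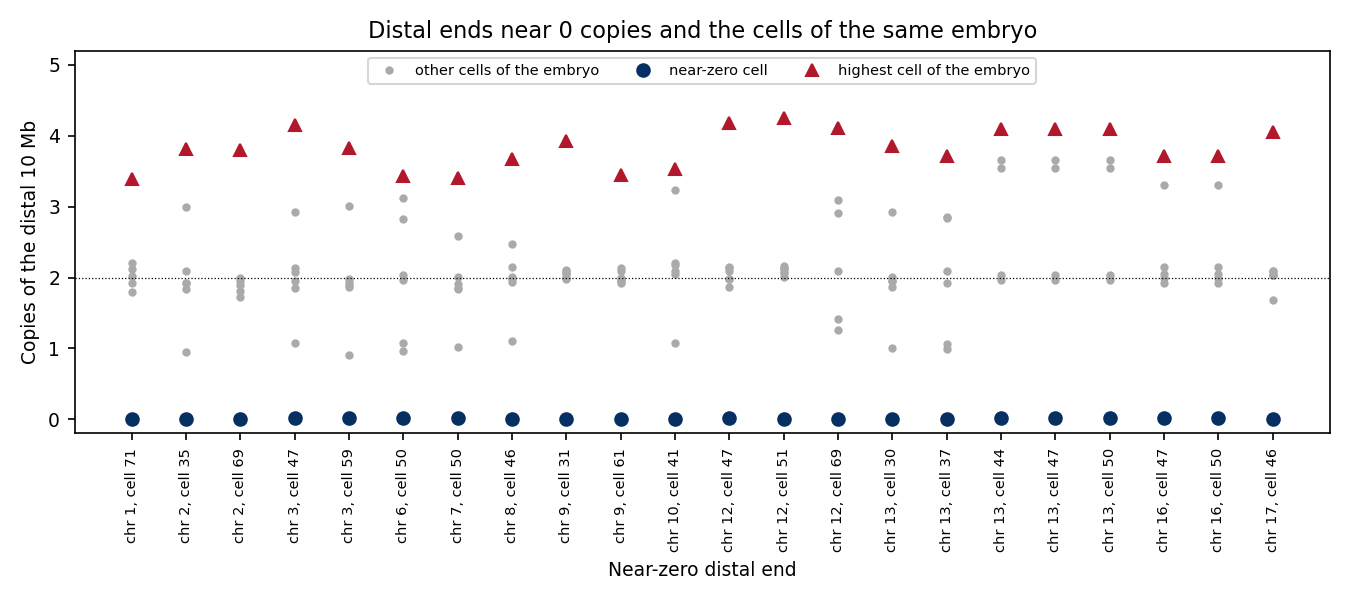
Copies of the distal 10 Mb (vertical axis) at the 22 near-zero ends, in the near-zero cell (dark blue), the highest cell of the embryo (red triangle) and its other cells (grey); the dotted line is at 2 copies. Every red triangle lies between 3.40 and 4.25 copies.

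At some ends the direction turned along the chromosome. The largest gaps between end and middle were all at near-zero levels. On chromosome 13 of cell 37 the log2 level of the end minus that of the middle was -10.20, and in cell 38 of the same embryo the end had 3.71 and the middle 1.02 copies, the mirror of it. This log2 difference was -8.08 for chromosome 8 in cell 46, -7.78 for chromosome 7 in cell 50, -7.68 for chromosome 9 in cell 61 and -7.59 for chromosome 2 in cell 35. Among the 10 largest the only positive one, 7.32, was that of chromosome 3 in cell 50, where the middle was near zero. The other 4 were -7.18 for chromosome 10 in cell 41, -6.90 for chromosome 2 in cell 69, -6.82 for chromosome 9 in cell 31 and -6.46 for chromosome 16 in cell 47.

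The 11 cases with opposite calls at end and middle lay on chromosomes 2, 4, 7, 8, 13 and 17. On 5 of these 6 chromosomes they came as 2 called cells of 1 embryo that mirrored each other. On chromosome 4 of Aphidicolin 6, cell 67 had 0.948 copies at the end and 3.09 in the middle, and cell 70 had 2.50 and 1.04. On chromosome 17 of Aphidicolin 1, cell 31 had 0.932 and 3.07, and cell 34 had 3.13 and 1.08. On chromosome 2 of Aphidicolin 3, cell 45 had 0.990 and 2.97, and cell 50 had 2.61 and 1.16. On chromosome 7 of Aphidicolin 3, cell 49 had 3.40 and 0.841, and cell 50 had 0.0141 and 3.10. Chromosome 8 of cell 50 had 1.11 copies at the end and 3.34 in the middle. Cell 49 of the same embryo had 2.47 and 0.926 there, with the end just below the gain limit at a log2 of 0.30. The change-point search called the distal 52 Mb gained in cell 49 and the distal 51 Mb lost in cell 50. In DMSO cells the 1 case was chromosome 10 of cell 24, described above.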

How the data were processed

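Values were the log2 values the authors deposited for each cell, set relative to that cell's median, in 200-kb steps of mm9 per the submitters' processing notes. Aligner and filters were not given in the sources used here. Metadata deposited by the authors named each cell's embryo and the collection window, names of other kinds, and gave a score per cell for noise and for passing, with all 67 cells marked as passing. Every value could be turned back into whole reads (tolerance 0.01) counted in overlapping 1-Mb windows. Ends, middles (10 windows nearest the midpoint) and proximal tips are medians over windows counted from the distal end, 2397 in all, after the shared profile (mean of both treatments' medians) was fitted by Huber regression and subtracted; empty bins were set to 0.5 reads. Change points were placed by penalised least squares (minimum 10 Mb).

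Tests were exact permutations over embryos and limma 3.58.1 (R 4.3.3) on embryo means, with Benjamini-Hochberg adjustment and a threshold of 0.05; the rest ran in Python 3.11.15 with numpy 2.4.6 and pandas 2.3.3. Scripts were tested on simulated data. No label says that the embryos came from separate matings or cultures, so p-values measure only the spread between these embryos. No paired analysis was possible because no number ties a DMSO cell or embryo to an Aphidicolin one. The ends, lists and comparisons were chosen with earlier results of these data known. By rule, values were given for the 5 ends called most (ties at 18 cells included), the 3 called least, those called in DMSO, the 15 lowest near-zero ends, the 5 highest gains and the 10 largest gaps between end and middle. The copy mark of 3.5, the profile over 80 Mb, the pairs of matching segments and the comparison of proximal tips between treatments were chosen after values were seen. X was left out of the calls.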

Additional observations from a re-analysis of the deposited data

Results flagged for a closer look

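In 27 sets of 6 Aphidicolin embryo means 4 single embryos lay far from the other 5, where chance alone flags about 1 in 20 groups. Aphidicolin 3 stood out with 1.38 near-zero ends per cell. At the end of chromosome 3, Aphidicolin 4 had the lowest mean departure from 2 copies, 0.515. At the end of chromosome 4, Aphidicolin 1 had the lowest, 0.0740, and none of its cells was called there. At the end of chromosome 14, Aphidicolin 6 had the highest, 0.879.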

How the results depend on the processing

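The mean of called ends per Aphidicolin cell was 5.90 to 7.77 and that of near-zero ends 0.446 to 0.488 over the alternatives other than left-out embryos. With values as deposited, DMSO cells had 5.25 called ends, the excess of losses at the end over the middle in Aphidicolin turned to -1.19 points, the difference of that excess between treatments turned to -7.06 points for gains, and 0 blocks and 0 ends passed limma. With the distal 5 Mb DMSO cells had 0.292 called ends. With window means in place of medians the excess over the middle was 7.39, 3.32 and 4.07 points for any call, gain and loss (exact permutation, adjusted p = 0.0417 each). With the proximal tip in its place it was 19.1, 8.80, 10.3 and 2.10 points, and between treatments 19.6, 9.02 and 10.5 points. In the limma fit of departures, 9 blocks and 2 ends became 16 and 1 with blocks of 5 Mb, 119 and 16 with array weights, whose estimation stopped before convergence, and 0 and 0 when cells were fitted singly with a random term per embryo; centring on the mode left 1 end. The cause of these shifts was not tested.

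With 1 embryo left out in turn, called ends ranged from 6.05 to 6.80 per Aphidicolin cell and from 0 (without DMSO 3) to 0.125 per DMSO cell, and near-zero ends from 0.286 (without Aphidicolin 3) to 0.536. The excess over the middle ranged from 5.08 (without Aphidicolin 1) to 8.50 points for any call, 2.03 to 4.00 for gains, 3.05 to 4.61 for losses and 0.808 to 1.33 for near-zero ends; between treatments from 5.08 to 8.50, 1.81 to 3.78, 3.26 to 4.82 and 0.808 to 1.33. Limma passed 0 to 14 blocks and 0 to 3 ends for departures: 0 without any 1 DMSO embryo, 2 blocks and 1 end without Aphidicolin 1, 5 or 6, 1 end without Aphidicolin 2, and 14 blocks without Aphidicolin 4. It passed 0 to 0 blocks or ends for signed levels. The alternative without the 3 noisiest cells was added after seeing the data. At 3 and 6 embryos the exact tests have few possible p-values, and reads per window limit near-zero levels to the statement that almost no reads were there.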
